A study of Mus musculus with 13 samples.

Results

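The genes described are 10 that act when a germ cell enters meiosis and recombines its chromosomes, taken by name from the deposited table: Stra8, Meioc, Ythdc2, Hormad1, Dmc1, Spo11, Msh5, Mei1, Mnd1 and Trip13. All 10 were found among its 35976 gene symbols. RNA was sequenced from E14.5 male primordial germ cells of mice, the fetal precursors of sperm, sorted for an Oct4-GFP reporter, with 5000 cells per sample. Groups are named WT, KO, HxD and V for their Tet1 genotype and had 3 libraries each, numbered as in the labels. WT is wild type for Tet1 and KO a knockout, while HxD is known to encode a TET1 that cannot oxidise and V a TET1 that goes no further than 5-hydroxymethylcytosine. TET1 oxidises methylated cytosine in DNA, a route to losing the mark. Not given in the sources used here are zygosity, strain, litter, any pooling of embryos and the part of the gene that the knockout lacks. All 4 groups carry the reporter, and nothing says that the 3 libraries of a group came from separate animals, so p-values measure the spread between these samples only, which may be technical.

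In fetal mouse gonads, female germ cells enter meiosis at about this age, when retinoic acid and BMP signals induce STRA8, which with its partner MEIOSIN switches on the meiotic programme. Male germ cells are shielded from retinoic acid by the enzyme CYP26B1 and held back by NANOS2, and they arrest in the cell cycle instead. Many recombination genes are nevertheless transcribed at some level before meiosis, and the promoters of several are methylated in somatic cells. TET1 is known from female germ cells as a factor that meiotic genes need for full activation.

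Of the 10 members, 8 had enough reads to judge and Stra8 and Mei1 did not. By edgeR's quasi-likelihood test with Benjamini-Hochberg adjustment over 14702 genes, 0 of the 8 were called in any comparison of genotypes. Of all genes, 0.218% were called in KO, 0.034% in HxD and 0% in V against WT. Between mutants the shares were 0.0068% (HxD against KO), 0.0204% (V against KO) and 0% (V against HxD). A member not called is not thereby shown to be unchanged. Hormad1, which encodes a protein of the meiotic chromosome axis, came closest: its mean and SD over 3 libraries were 56.7 ± 9.79 CPM (WT), 29.6 ± 11.3 (KO), 25.3 ± 8.84 (HxD) and 43.0 ± 21.2 (V). CPM are read counts scaled to 1000000 reads per library, with TMM factors. Every KO and every HxD library lay below every WT library for Hormad1. Of all tested genes, 8.15% were so placed in KO and 7.22% in HxD. The smallest edgeR adjusted p of Hormad1 in a comparison of 2 genotypes was 0.401.

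Library totals ran from 13584484 to 29641963 reads, and 11529 to 15715 genes had a read. The check of the KO label held: Tet1 had 596, 589 and 639 CPM in WT 1 to 3 and KO 1 to 3 had 213, 201 and 225 (-1.51 on the log2 scale with SE 0.17; edgeR adjusted p = 1.41e-05). Tet1 stood at 626 ± 101 CPM in HxD (0.04, SE 0.17) and 480 ± 133 in V (-0.34, SE 0.17). Both overlapped WT, so these counts do not check the HxD and V labels. Of 10 germ cell markers, among them Ddx4, Pou5f1 and Dppa3, 0 were absent, and their summed level was 4655 to 4840 CPM in WT, 3473 to 3730 in KO, 3230 to 4207 in HxD and 3752 to 4067 in V. That sum was higher in every WT library than in every mutant library, and the list holds Dazl and Mael. Dazl averaged 1754 CPM in WT, 849 in KO, 793 in HxD and 953 in V. Mael averaged 121, 22.1, 16.3 and 39.6 CPM in the same order. A sum without these genes was not taken, and the part of this list in the results below was not tested. Y-linked genes summed to 189 CPM or more in every library and Xist, the RNA of the inactive X in female somatic cells, reached at most 3.89 CPM. Sertoli markers summed to 474 CPM in V 2 and to at most 169 in any WT library, 80.0 in any KO library and 57.0 in any HxD library. Granulosa markers of the ovary stayed at or below 21.3 CPM in sum, with Foxl2 at 0 in 10 of 12 libraries. In bulk samples such as these, fewer cells of a type and less RNA per cell cannot be told apart.

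The promoters of Hormad1, Trip13, Dmc1 and Stra8 are shown because the study concerns DNA methylation and these differ in how many CpG they hold. They come from the RefSeq table of GRCm38.p6, which had an entry for 8 of the 10 members, and cover 300 bases each, mostly upstream of the start site. CpG dinucleotides, the targets of DNA methylation, are in capitals.
Hormad1, chr3:95559427-95559726, plus strand: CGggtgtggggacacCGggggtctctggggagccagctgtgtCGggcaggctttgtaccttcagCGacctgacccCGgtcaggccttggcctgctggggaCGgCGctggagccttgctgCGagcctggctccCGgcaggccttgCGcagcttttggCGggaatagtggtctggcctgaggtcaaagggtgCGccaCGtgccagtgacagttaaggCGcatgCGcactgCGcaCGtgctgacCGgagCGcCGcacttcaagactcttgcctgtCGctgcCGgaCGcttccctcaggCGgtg
Trip13, chr13:73937718-73938017, minus strand: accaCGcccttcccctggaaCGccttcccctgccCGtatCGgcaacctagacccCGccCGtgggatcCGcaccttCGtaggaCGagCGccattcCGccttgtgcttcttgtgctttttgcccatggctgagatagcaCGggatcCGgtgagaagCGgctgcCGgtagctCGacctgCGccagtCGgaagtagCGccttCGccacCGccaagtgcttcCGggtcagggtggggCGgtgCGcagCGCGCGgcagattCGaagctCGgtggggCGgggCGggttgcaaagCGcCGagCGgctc
Dmc1, chr15:79605060-79605359, minus strand: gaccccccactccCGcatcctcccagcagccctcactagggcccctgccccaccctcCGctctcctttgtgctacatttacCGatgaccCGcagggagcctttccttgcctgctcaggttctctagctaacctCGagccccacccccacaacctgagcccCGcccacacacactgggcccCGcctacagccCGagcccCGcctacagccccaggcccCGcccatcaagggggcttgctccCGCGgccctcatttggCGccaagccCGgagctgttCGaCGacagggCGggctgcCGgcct
Stra8, chr6:34920698-34920997, plus strand: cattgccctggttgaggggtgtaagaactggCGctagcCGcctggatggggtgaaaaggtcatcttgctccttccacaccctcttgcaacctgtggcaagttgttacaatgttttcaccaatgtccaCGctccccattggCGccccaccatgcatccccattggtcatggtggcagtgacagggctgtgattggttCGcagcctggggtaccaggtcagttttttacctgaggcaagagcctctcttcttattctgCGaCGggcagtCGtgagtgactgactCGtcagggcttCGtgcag

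The Trip13 promoter held 34 CpG, with an observed to expected ratio of 1.0, and that of Hormad1 held 24, with a ratio of 0.71. Dmc1 had 18 CpG (ratio 0.57) and Stra8 10 (0.43), against medians of 7 and 0.39 over the promoters of all genes in the table. The Stra8 start site in this table lies 785 bp inside the start that GENCODE M21 gives, so the window shown is not the region before that upstream start. The Meioc window lies 1869 bp, the Mei1 window 12480 bp, the Msh5 window 123 bp and the Trip13 window 17 bp inside in the same way, and the motif counts hold for these windows only. The E-box CACGTG, which the germline gene repressors MGA and MAX bind, occurred 2 times in the Hormad1 window, beginning 57 and 20 bases before the start site, and in no window of the other 7 members. One copy or more was found in 7.24% of all promoters. The E2F core TCCCGC, searched on both strands, was found in Hormad1, Dmc1, Meioc, Msh5 and Mnd1 and in 20.02% of all promoters. Those windows are rich in G and C, at 65 to 69% of bases, against a median of 52.67% over all promoters. Trip13, without the motif, had 67.3%. The retinoic acid receptor half-site AGGTCA, on both strands, occurred 2 times in the Stra8 window, 1 time each in those of Hormad1 and Mei1, and in 16.0% of all promoters. The STRA8-MEIOSIN motif CNCCTCAG, on both strands, occurred 1 time in the Msh5 window, in no other member's window, and in 7.97% of all promoters. These letter matches describe the sequence only, and methylation was not measured in these libraries.

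Compared per kilobase of exon in GENCODE M21, the members differed widely in level. In WT, Hormad1 had 32.8 ± 5.66 CPM per kb (SD, n = 3), Trip13 26.3 ± 4.77 and Mnd1 26.2 ± 7.93, and the libraries of these 3 genes overlapped. Dmc1 followed at 11.2 ± 3.67 CPM per kb and Ythdc2 at 8.54 ± 0.98, overlapping each other but not the 3 above. Spo11 had 5.50 ± 1.28, with its highest WT library at 6.84 CPM per kb, below the lowest of Ythdc2 at 7.72. Meioc had 1.65 ± 0.95, Msh5 0.64 ± 0.60, Stra8 0.50 ± 0.87 and Mei1 0.04 ± 0.07 CPM per kb, and each of these 4 overlapped the next in order. Exon lengths are those of the annotation named, since the authors' annotation is not given in the sources used here.

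**Figure D1:**
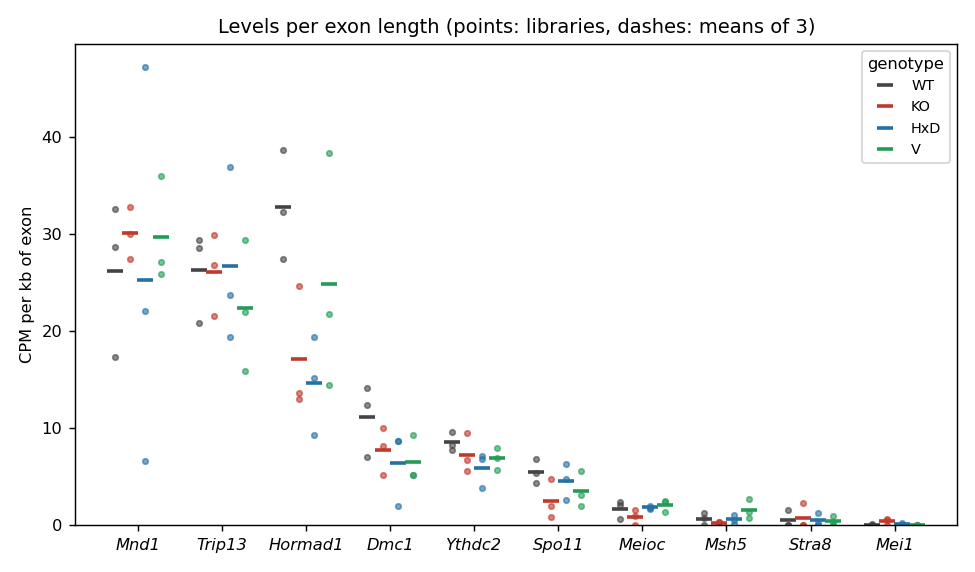
Level of each member in CPM per kb of exon (y axis) for the 10 genes in order of their mean over 12 libraries (x axis); small points are libraries and dashes are the means of 3 libraries of WT, KO, HxD and V. Mnd1, Trip13 and Hormad1 stand highest, and in Hormad1 the WT mean of 32.8 lies above the KO mean of 17.1 and the HxD mean of 14.6.

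The depth behind the weak members decided what could be said of them. A member counted as too weak where its median read count over the 12 libraries was under 10. Stra8 (chromosome 6, 34920163 to 34939344, plus strand, in GENCODE M21 on GRCm38 as for all positions of genes given here), the regulator that starts the meiotic programme, had a median of 5.5 reads. Its counts were 54, 0 and 0 in WT 1 to 3, 0, 87 and 0 in KO, 11, 51 and 0 in HxD and 13, 36 and 0 in V. At least 1 library of each genotype had reads and at least 1 had none, so no genotype stood apart. Mei1 (chromosome 15, 82069996 to 82126814, plus strand), which is needed for meiotic double-strand breaks, had a median of 0 reads. It had 65 and 68 reads in KO 1 and KO 3, 13 in WT 2, 12 in HxD 3 and 0 in the other 8 libraries. A count of 0 allows up to 3 reads, or 0.103 CPM in HxD 1 and 0.220 CPM in V 3 at the extremes of depth, and this limit covers counting error only, since reads without molecular identifiers are not independent molecules.

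Reads of weak genes in these libraries came in clumps. Among the 2833 tested genes averaging 10 to under 50 reads, 47.1% of the library values were 0, 6.76% were 1 to 10 and 46.1% were above 10. Stra8 had 6 libraries at 0 and no value from 1 to 10. Meioc had 1 library at 0 (KO 1) although it averaged 154 reads, and Msh5 had 2 (WT 3 and KO 3) at an average of 77.3 reads. Of all 2244 tested genes averaging 50 to under 200 reads, 72.5% had at least 1 library at 0, against 3.81% of those averaging 200 to under 1000 and 0% above that. A lone 0 of Meioc or Msh5 is therefore ordinary at its depth. The other 6 members averaged 348 reads or more and had reads in every library.

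**Figure D2:**
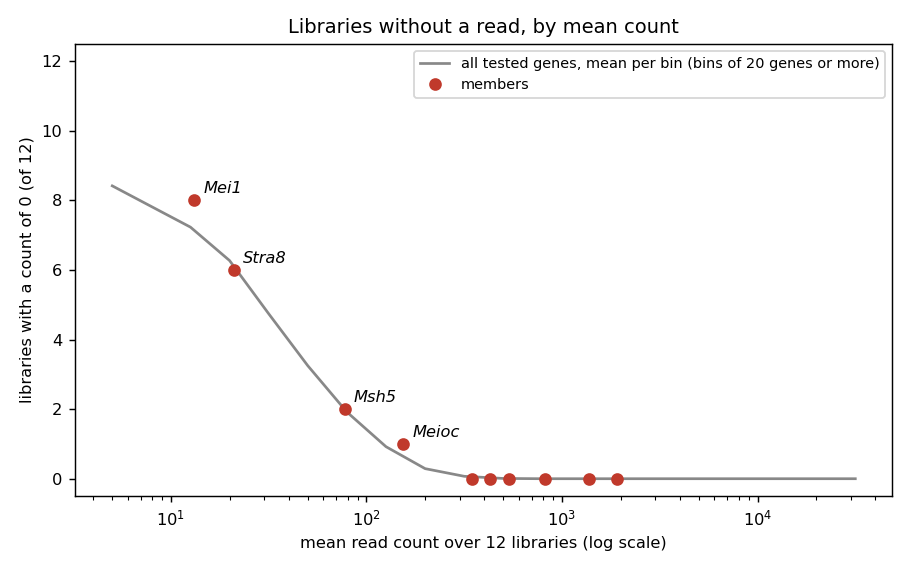
Number of libraries without a read, out of 12 (y axis), against the mean read count on a log scale (x axis); red points are the 10 members and the grey line is the mean over all tested genes in bins of mean count. Mei1 (8 libraries), Stra8 (6), Msh5 (2) and Meioc (1) lie near the line, and the other 6 members lie at 0.

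Among the genes of meiotic entry, the partners Ythdc2 and Meioc were measurable. YTHDC2 is an RNA helicase that binds MEIOC, and together they lower mitotic transcripts as meiosis begins. Ythdc2 (chromosome 18, 44827746 to 44889724, plus strand) had 73.5, 68.6 and 85.5 CPM in WT 1 to 3, 83.9, 49.7 and 59.6 in KO, 63.5, 34.2 and 60.0 in HxD and 50.3, 61.6 and 70.8 in V. The HxD libraries all lay below the WT libraries, as for 7.22% of all tested genes, while KO and V overlapped them. Its log2 fold change against WT was -0.53 in HxD (SE 0.27, 95% interval -1.09 to 0.03, edgeR adjusted p = 0.608), -0.24 in KO (SE 0.27, edgeR adjusted p = 0.971) and -0.32 in V (SE 0.27, edgeR adjusted p = 0.986). In KO the interval ran from -0.79 to 0.32, which leaves room for a level up to 1.73-fold lower or 1.25-fold higher. Meioc (chromosome 11, 102663716 to 102682237, plus strand) had 10.9, 9.37 and 2.63 CPM in WT, 0, 4.23 and 7.03 in KO, 7.73, 9.07 and 8.14 in HxD and 10.9, 6.11 and 11.2 in V. The WT libraries overlapped those of each mutant, and the log2 fold changes were -1.02 (KO, SE 1.21), 0.12 (HxD, SE 1.20) and 0.30 (V, SE 1.20). In KO the value was -1.85 without KO 3 and -0.44 without KO 1. The 95% interval reached past 2-fold in both directions in each mutant.

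**Figure D3:**
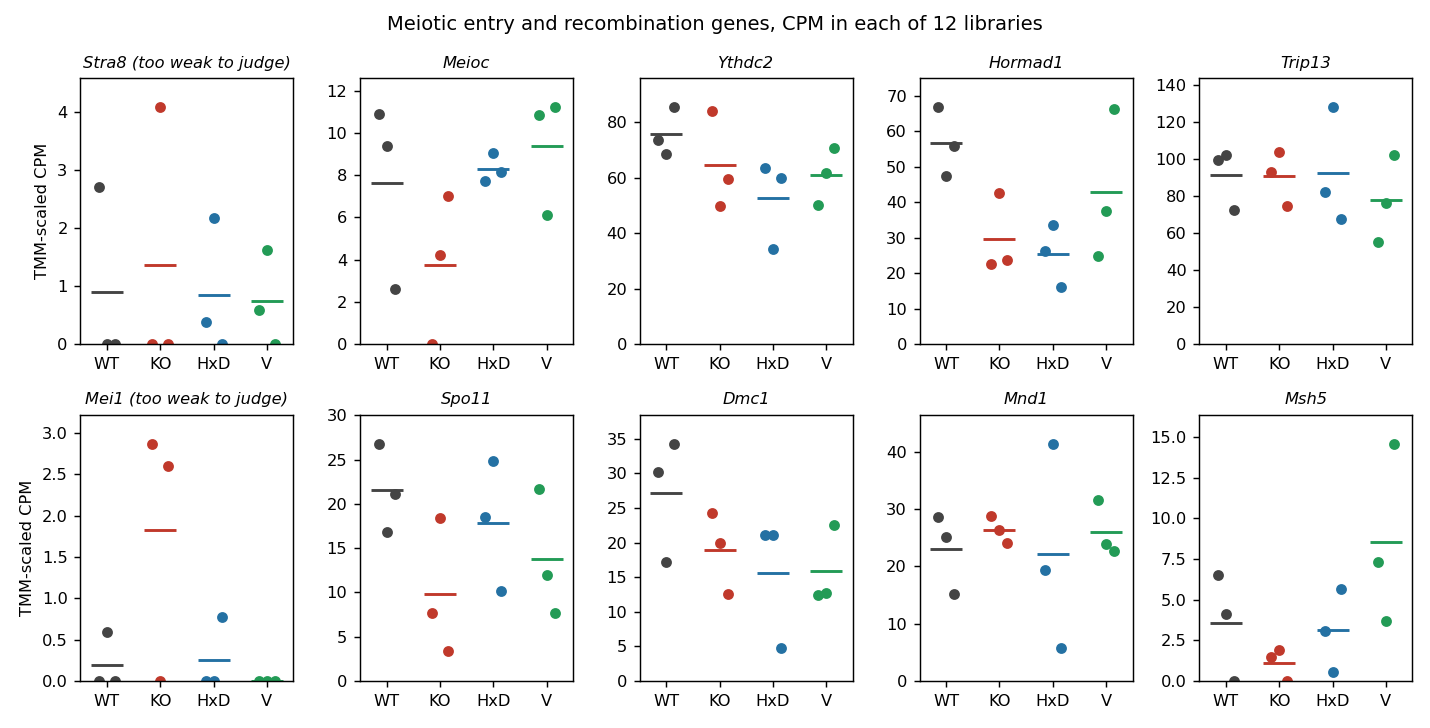
TMM-scaled CPM of the 10 members (y axis of each panel, from 0) in the 3 libraries of each genotype (x axis); points are libraries and lines are means. For Hormad1 the WT points, from 47.4 to 66.9 CPM, lie above all KO and HxD points, while V reaches 66.4.

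Hormad1 and Trip13 act on the same structure. HORMAD1 coats unsynapsed chromosome axes and promotes break formation, and TRIP13 is an ATPase that strips it from synapsed axes and also serves the spindle checkpoint of ordinary mitosis. Hormad1 (chromosome 3, 95559677 to 95587671, plus strand) had 66.9, 47.4 and 55.9 CPM in WT 1 to 3. It had 22.5, 42.7 and 23.6 in KO, 26.3, 33.6 and 16.0 in HxD and 25.0, 37.7 and 66.4 in V. All 6 KO and HxD libraries lay below the lowest WT library, whereas V 3 was level with the highest. The log2 fold change was -0.94 in KO (SE 0.37, 95% interval -1.70 to -0.17, unadjusted p = 0.018, edgeR adjusted p = 0.474) and -1.16 in HxD (SE 0.38, interval -1.93 to -0.39, unadjusted p = 0.00429, edgeR adjusted p = 0.401). In V it was -0.40 (SE 0.37, interval -1.16 to 0.36, edgeR adjusted p = 1), with -0.85 without V 3 and -0.11 without V 1. DESeq2 gave adjusted p = 0.225 for KO and 0.0961 for HxD.

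Separation of that kind was common in these data. Of all 14702 tested genes, 8.15% had every KO library below every WT library and 7.22% every HxD library. Among the 8 judged members, 1 was so placed in KO (Hormad1), 2 in HxD (Hormad1 and Ythdc2) and 0 in V, where 6.06% of genes were. The reverse, every mutant library above every WT library, was seen for 0 of the 8 in each mutant, beside 8.13% (KO), 5.26% (HxD) and 5.75% (V) of all genes. Since the 3 comparisons share the WT libraries, they are not independent repeats. In the mean of the 3 mutants, Hormad1 had a log2 fold change against WT of -0.83 (SE 0.29, 95% interval -1.43 to -0.24, unadjusted p = 0.00742, edgeR adjusted p = 0.284). In that comparison 0 of the 8 were called by edgeR, beside 0.143% of all genes. DESeq2 called 0 of the 5 to which it gave an adjusted p, beside 3.22% of 7574 genes, and gave none to Meioc, Spo11 and Msh5. At an unadjusted p under 0.05 edgeR had 1 lower (Hormad1), beside 6.24%.

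Trip13 (chromosome 13, 73911347 to 73937784, minus strand), the member with the most reads, was the one whose level was pinned down best. It had 99.4, 102 and 72.3 CPM in WT, 93.1, 104 and 74.9 in KO, 82.4, 128 and 67.5 in HxD and 55.2, 76.3 and 102 in V. All groups overlapped. Its log2 fold change in KO was -0.01 (95% interval -0.53 to 0.51, edgeR adjusted p = 1), so that a level more than 1.42-fold higher or 1.44-fold lower than in WT lay outside the interval. In HxD the value was 0.02 (interval -0.50 to 0.54) and in V -0.23 (interval -0.75 to 0.29).

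Spo11 (chromosome 2, 172977700 to 172993576, plus strand) encodes the topoisomerase-like protein that cuts both DNA strands to begin recombination. Its levels were 26.8, 16.8 and 21.1 CPM in WT, 7.73, 18.4 and 3.40 in KO, 18.6, 24.8 and 10.2 in HxD and 21.6, 11.9 and 7.63 in V. KO 1 and KO 3 lay below every WT library and KO 2 within the WT range. The log2 fold change in KO was -1.13 (SE 0.64, 95% interval -2.45 to 0.18, unadjusted p = 0.0888, edgeR adjusted p = 0.644), with -1.96 without KO 2 and -0.72 without KO 3. It was -0.27 in HxD (SE 0.64) and -0.65 in V (SE 0.64), with edgeR adjusted p = 0.997 and 1. The unadjusted p for KO was 0.0493 with DESeq2, whose adjusted p was 0.431.

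DMC1 is the recombinase that searches for the homologous chromosome, and MND1, paired with HOP2, helps it to invade the other strand. Dmc1 (chromosome 15, 79561497 to 79605109, minus strand) had 30.2, 17.2 and 34.3 CPM in WT, 24.2, 19.9 and 12.6 in KO, 21.1, 21.1 and 4.72 in HxD and 12.4, 12.7 and 22.5 in V. WT 2 lay inside the range of each mutant. The log2 fold changes against WT were -0.53 in KO (SE 0.54), -0.80 in HxD (SE 0.54) and -0.78 in V (SE 0.54), with edgeR adjusted p = 0.939, 0.695 and 0.883. Mnd1 (chromosome 3, 84087933 to 84155786, minus strand) had 28.5, 25.1 and 15.2 CPM in WT, 28.8, 26.3 and 24.0 in KO, 19.3, 41.4 and 5.75 in HxD and 31.5, 23.8 and 22.7 in V. Its widest spread was within HxD, from the lowest to the highest of the 12 libraries. The log2 fold changes of Mnd1 were 0.20, -0.05 and 0.18 in KO, HxD and V (SE 0.49 each).

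Msh5 (chromosome 17, 35028605 to 35046745, minus strand) encodes a MutS homologue that with MSH4 stabilises recombination intermediates on the way to crossovers. It had 6.52, 4.14 and 0 CPM in WT, 1.46, 1.88 and 0 in KO, 3.08, 0.556 and 5.69 in HxD and 7.29, 3.66 and 14.6 in V. All V libraries lay above all KO libraries, which was true of 5.15% of tested genes. The log2 fold changes against WT were -1.67 in KO (SE 1.79), -0.19 in HxD (SE 1.74) and 1.26 in V (SE 1.76), and V exceeded KO by 2.93 (SE 1.87, edgeR adjusted p = 1). Leaving out 1 library, Msh5 ran from -2.28 (without KO 2) to -0.89 (without WT 1) in KO and from 0.62 (without V 3) to 2.04 (without WT 1) in V.

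**Figure D4:**
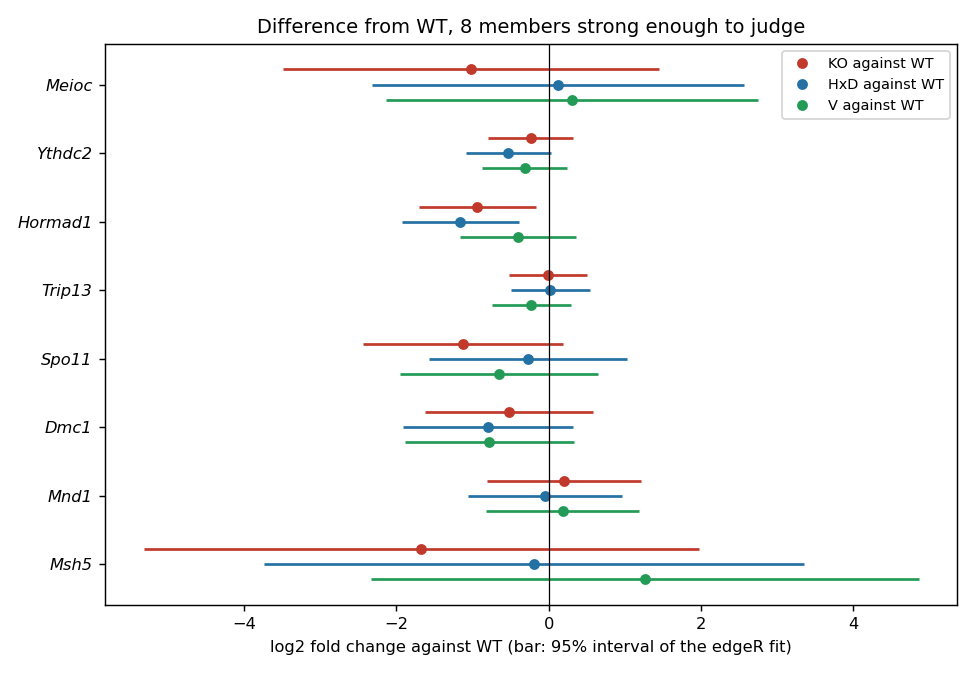
Log2 fold change against WT (x axis) with its 95% interval from the edgeR fit for the 8 judged members (y axis), in KO, HxD and V. Only the Hormad1 intervals of KO and HxD lie wholly below 0, and the intervals of Meioc and Msh5 are the widest.

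Counted together, 7 of the 8 judged members had a negative log2 fold change in KO, 6 in HxD and 5 in V. Of all tested genes 49.5%, 51.6% and 48.9% did. The members' medians were -0.73, -0.23 and -0.27, beside medians over all tested genes of 0.00, -0.02 and 0.01. At the adjusted threshold of 0.05 the members called were 0 in each comparison, where 0.218% of all genes were called in KO, 0.034% in HxD and 0% in V. At an unadjusted p under 0.05, 1 member was lower in KO and 1 in HxD, Hormad1 each time, against 4.54% and 4.82% of all genes, and 0 in V against 3.2%. DESeq2 also called 0 members in these comparisons, beside 1.74%, 1.37% and 0.562% of the genes it tested. HxD 3, with 15037595 reads and the lowest germ cell marker sum, held the lowest value of Hormad1, Dmc1 and Mnd1, while HxD 2 held the highest of Mnd1 and Trip13. Dazl, part of that sum, was at its lowest in HxD 3 too (576 CPM). Without HxD 3 the HxD log2 fold change was -0.91 for Hormad1, -0.36 for Dmc1 and 0.42 for Mnd1.

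Between the mutants, edgeR called 0 of the 8 members in each of the 3 comparisons, where 0.0068%, 0.0204% and 0% of all genes were called for HxD against KO, V against KO and V against HxD. At an unadjusted p under 0.05 the count was likewise 0 in each, beside 4.67%, 4.1% and 5.07% of genes. DESeq2 called 0, beside 0.76%, 0.544% and 0.697%, with 1 member at an unadjusted p under 0.05, Hormad1 in V against HxD. Hormad1 differed between HxD and KO by -0.22 (95% interval -0.99 to 0.54, edgeR adjusted p = 1). Its level in V exceeded that in HxD by 0.76 (interval -0.0029 to 1.53, unadjusted p = 0.0508, edgeR adjusted p = 0.861) and that in KO by 0.54 (interval -0.23 to 1.30, edgeR adjusted p = 1). V 3 carried much of this: without it the differences were 0.31 and 0.08. Meioc was higher in every HxD library than in every KO library, as were 3.69% of genes, with a log2 fold change of 1.15 (SE 1.21, edgeR adjusted p = 1).

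The rest of the pathway was read from 6 lists with 99 genes besides the members, of which 90 passed the expression filter. In KO 3 of the 90 were called lower and 0 higher, in HxD 2 lower and 0 higher, and in V 0, beside calls in either direction for 0.218%, 0.034% and 0% of all genes. At an unadjusted p under 0.05, 14, 12 and 10 of the 90 were lower in KO, HxD and V, beside 4.54%, 4.82% and 3.2% of all genes. DESeq2 called 4, 3 and 1, beside 1.74%, 1.37% and 0.562% of the genes it tested. The called genes were Dazl and Mael in both KO and HxD and Smc1b in KO. Dazl, an RNA-binding protein that gives germ cells the ability to enter meiosis, stood at 1754 ± 150 CPM in the WT libraries, at 849 ± 193 in those of KO and at 793 ± 192 in those of HxD (± SD of 3). Its log2 fold changes were -1.05 and -1.15 (SE 0.19 each), with edgeR adjusted p = 0.00943 and 0.00935. Smc1b, a cohesin of the meiotic chromosome axis, had 329 ± 38.1 CPM in WT and 163 ± 16.2 in KO, a log2 difference of -1.01 (SE 0.22; edgeR adjusted p = 0.0438). That call ended under 6 alternatives, DESeq2 among them (adjusted p = 0.0752), while the difference stayed between -1.10 and -0.93. In HxD and V Smc1b was at -0.68 and -0.55 (SE 0.22 each, edgeR adjusted p = 0.404 and 0.757). Mael, a piRNA pathway gene, had log2 fold changes of -2.45 in KO and -2.89 in HxD (SE 0.39 and 0.40, edgeR adjusted p = 0.0018 and 0.000567). Dazl in V, not called by edgeR, had 953 ± 255 CPM (-0.88, SE 0.19, edgeR adjusted p = 0.19). Mael in V, not called by edgeR, had 39.6 ± 11.7 CPM (-1.61, SE 0.38, edgeR adjusted p = 0.293). The 1 gene that DESeq2 called in V is in the list of meiotic entry partners, which holds Dazl and Mael. For both genes every V library lay below every WT library, as for 6.06% of all genes. In the mean of the 3 mutants 3 of the 90 were called, beside 0.143% of all genes. They were Dazl, Mael and a gene of the axis and synaptonemal complex list other than Smc1b. Smc1b was not called there (edgeR adjusted p = 0.0656). Over the 90 genes the median log2 fold change was -0.22 in KO, -0.20 in HxD and -0.16 in V.

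By list, the chromosome axis and synaptonemal complex had the lowest median in KO, -1.06 over 11 tested genes, 10 of them negative. In KO, 49.5% of all tested genes were negative. The medians of this axis list were -0.72 in HxD and -0.55 in V. From it edgeR called 1, 0 and 0 genes in KO, HxD and V, beside 0.218%, 0.034% and 0% of all genes. At an unadjusted p under 0.05, 4, 5 and 3 of the 11 were lower, beside 4.54%, 4.82% and 3.2%. The 15 meiotic entry partners had medians of -0.48, -0.07 and -0.24 in KO, HxD and V. Called were 2, 2 and 0, beside 0.218%, 0.034% and 0% of all genes. Among them, Mga was at -0.78 in KO (SE 0.19, edgeR adjusted p = 0.083). It was at -0.65 in HxD and -0.57 in V (SE 0.19 each, edgeR adjusted p = 0.331 and 0.632). Meiosin was at 0.57 in KO (SE 0.92) and Nanos2 at -3.50 (SE 2.09). Of the 10 tested genes of double-strand break formation 0 were called in KO, beside 0.218% of all genes. At an unadjusted p under 0.05, 1 was lower, beside 4.54%. The 10 had a median of -0.62 in KO, with 9 negative. Several were poorly measured: Prdm9 (-4.66, SE 3.71), Ankrd31 (-1.09, SE 1.79), Ccdc36 (-1.31, SE 1.67), Gm960 (-0.73, SE 1.19) and Mei4 (-1.26, SE 1.01). The rest ran from -0.51 (Rec114, SE 0.55) to 0.12 (Hormad2, SE 0.45). The screen for weak members was not applied to the lists. Hells, a chromatin remodeller that opens break sites with PRDM9, had 873 ± 53.0 CPM in WT and 650 ± 56.4 in KO, a log2 difference of -0.43 (SE 0.15; edgeR adjusted p = 0.377), and Atm, the kinase that limits breaks, 238 ± 20.4 in WT and 166 ± 35.9 in V (-0.52, SE 0.23, edgeR adjusted p = 0.789). The 24 genes of end processing and strand exchange had a median of -0.08 in KO, with 0 called, beside 0.218% of all genes. At an unadjusted p under 0.05, 2 of them were lower, beside 4.54%. Brca2, the loader of the recombinases, stood at 136 ± 23.7 CPM in KO against 214 ± 5.44 in WT (-0.65, SE 0.23, edgeR adjusted p = 0.35), and Tex15 at 95.4 ± 4.01 against 137 ± 34.8 (-0.52, SE 0.23, edgeR adjusted p = 0.538).

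The 18 crossover genes had a median of -0.25 in KO and -0.30 in HxD, again with 0 called, beside 0.218% and 0.034% of all genes. At an unadjusted p under 0.05, 3 in each were lower, beside 4.54% and 4.82%. Prr19, a crossover factor, had 9.57 ± 1.97 CPM in HxD against 28.6 ± 9.24 in WT (-1.58 on the log2 scale; SE 0.54; edgeR adjusted p = 0.436). Eme1, a subunit of a structure-specific nuclease, had 57.0 ± 24.3 CPM in HxD against 26.0 ± 7.16 in WT (1.13, SE 0.40, edgeR adjusted p = 0.44). Of the 13 tested genes of the retinoic acid pathway 0 were called in KO, HxD and V, beside 0.218%, 0.034% and 0% of all genes. Their medians were -0.11, -0.06 and -0.20 in the same order. At an unadjusted p under 0.05, 0, 0 and 1 were lower, beside 4.54%, 4.82% and 3.2%. The receptor gene Rxra had 20.3 ± 4.01 CPM in V and 38.4 ± 27.6 in WT (-0.92, SE 0.44, edgeR adjusted p = 0.82), where WT 3 alone was at 9.95. The difference was -0.31 without WT 1 and -1.38 without WT 3. Stra6, a retinol transporter gene, had reads in WT 1, HxD 1 and V 2 only and could not be judged.

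**Figure D5:**
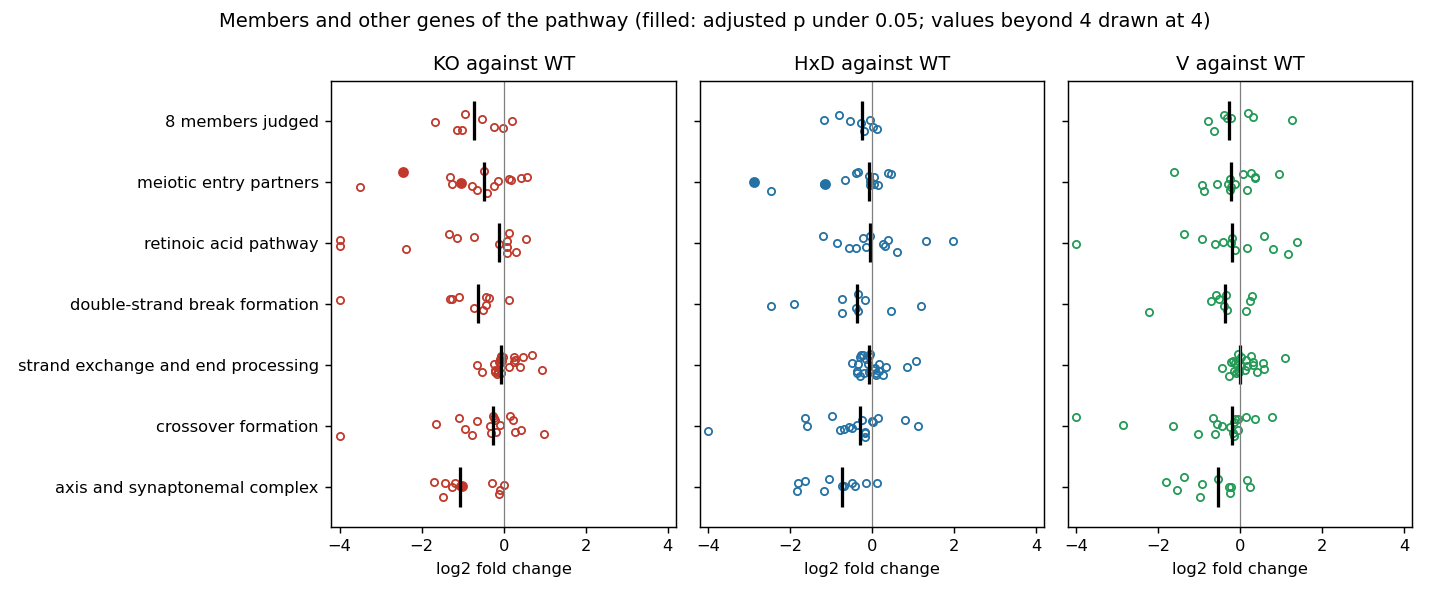
Log2 fold change against WT (x axis) of the 8 judged members and of the tested genes of 6 pathway lists (y axis), in KO, HxD and V; filled circles passed an adjusted p of 0.05, black bars are medians, and values beyond 4 are drawn at 4. The filled circles are Dazl, Mael and Smc1b in KO and Dazl and Mael in HxD, and none is a member.

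As a description of likeness over the 12 libraries, the genes nearest to each member were taken by Spearman's rho of CPM among the genes averaging at least 8 CPM, 9249 candidates for each. Hormad1 was most like Plekhg2 (rho 0.94) and Tex11 (0.93), the latter an X-linked crossover gene. For Ythdc2 they were Ttll12 (0.95) and Akirin1 (0.92), for Spo11 Pald1 (0.99) and Eva1b (0.90), and for Dmc1 Adnp2 (0.92) and Plekha8 (0.90). Mnd1 was nearest to Galnt6 and Gmcl1 (0.90 each) and Trip13 to Iars2 (0.92) and Cog6 (0.90). These are the highest of 9249 values for each member over 12 points that share library depth and genotype, and no test was made. Among the members themselves the values were lower. Meioc and Msh5 reached 0.77, Ythdc2 and Dmc1 0.70 and Hormad1 and Dmc1 0.59, and the lowest was -0.35 for Ythdc2 and Mnd1.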

How the data were processed

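The values deposited are raw counts of reads, 1 row per gene symbol. The tools named are featureCounts 2.0.3, STAR 2.7.10b, Trim Galore 0.6.7, FastQC and SAMtools 1.9, per the submitters' processing notes in no stated order, and 2 genome builds, mm10 and GRCm39, without saying what each was used for. Not given in the sources used here are the annotation, strand setting and read filters, so reads of a gene and of one antisense to it cannot be told apart; in GENCODE M21 no member's exons overlap those of another gene. Per the labels' protocols, mRNA was captured on oligo-dT beads, which under-represent RNA without a poly(A) tail. The columns named for samples number 12; 1 other column, tied by its heading to no sample, was left out. The sample WT 4, which the planned design counted in, is not analysed here.

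Genes were kept with edgeR's default expression filter, scaled by TMM and fitted on genotype alone across the 12 libraries (edgeR 4.0.16, R 4.3.3). Tests were quasi-likelihood F-tests, two-sided, with Benjamini-Hochberg adjustment over 14702 genes and a threshold of 0.05. Standard errors and 95% intervals follow from the F statistic, are per gene and are not adjusted for multiple tests. Members and lists were chosen with earlier results of these data known. Named genes are the members, Tet1, the called genes of each pathway list or, with none called, the 2 with the smallest p, and the 2 nearest genes by rho. Some other list genes are named for their SE, as the ends of a range or because the text above mentions their protein. Of 166 list symbols 6 were matched through RefSeq synonyms and 1 was not found. The germ cell and pathway lists share Dazl and Mael. Alternatives were DESeq2 1.42.0, RLE scaling, no filter, a minimum mean of 8 CPM, fits on 2 genotypes, a replicate block, 1 surrogate variable (sva 3.50.0), leaving out each library, and setting WT 3 and V 3 aside, a pair known beforehand to stand apart in an earlier account of these data. The edgeR script was tested on simulated data. There, among genes of 8 CPM or more, it called 47% of those changed 2-fold in KO. Of those changed 4-fold it called 81%, so real differences of such size can be missed. The simulated counts were drawn from a negative binomial model, so the rates in the real libraries may differ. Meioc and Msh5 average under 8 CPM and are not covered by these rates.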

Additional observations from a re-analysis of the deposited data

How the results depend on the processing

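Of the judged members tested, 0 were called in each comparison under each alternative run; Meioc and Msh5 were not tested under the stricter filter, nor, by DESeq2, Meioc, Spo11 and Msh5 in the mean of the mutants. The calls over all genes in KO beside this were 32 as reported, 249 with DESeq2, 148 without the filter, 104 with the replicate block and 11 with WT 3 and V 3 aside. For Hormad1 the sign stayed negative in KO, HxD, V and their mean under all of them. Its log2 fold change, leaving out 1 library at a time, ran from -1.30 to -0.77 in KO and from -1.42 to -0.91 in HxD and from -0.85 to -0.11 in V, and its smallest adjusted p over all alternatives was 0.225 in KO and 0.0961 in HxD. Between HxD and KO it ran from -0.48 to 0.13. Of the members' values under the alternatives, 651 kept their direction and 33 changed sign; the cause was not tested.

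With WT 3 and V 3 set aside, Mnd1 was -0.028 in KO and -0.087 in the mean of the mutants, Meioc -0.29 in HxD and -0.25 in V, and Trip13 -0.12 in HxD. With 1 surrogate variable Trip13 was 0.0057 in KO and Msh5 0.71 in HxD and 0.66 in the mean. Leaving out 1 library at a time, Mnd1 ran from -0.028 to 0.39 in KO, -0.87 to 0.42 in HxD, -0.046 to 0.37 in V and -0.16 to 0.30 in the mean. Trip13 ran from -0.15 to 0.11 in KO, -0.29 to 0.22 in HxD and -0.22 to 0.016 in the mean. Meioc ran from -0.29 to 0.47 in HxD, -0.11 to 0.65 in V and -0.61 to 0.15 in the mean, Msh5 from -0.94 to 0.58 in HxD and -0.79 to 0.57 in the mean, and Spo11 from -0.58 to 0.018 in HxD. Stra6 in KO ran from -7.18 to 0, the last without WT 1, its only WT library with reads; all KO libraries were at 0, so the fitted value is no bound. Meioc and Msh5 average under 8 CPM and so have no value under the stricter filter, and the mean of the mutants has none with 2 genotypes alone.

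The pathway genes called were 6 in KO, 4 in HxD and 3 in V without the filter, where those over all genes rose from 32, 5 and 0 to 148, 67 and 32. They were 1 in KO and 1 in HxD with WT 3 and V 3 aside, and 1 in V with DESeq2. Leaving out 1 library they were 2 to 5 in KO (5 without any 1 of HxD 1, HxD 2, HxD 3, V 1 and V 2), 1 to 4 in HxD (4 without HxD 1, 1 without HxD 3) and 0 to 2 in V. Calls ended for Dazl with WT 3 and V 3 aside (adjusted p 0.0955 in KO, 0.0904 in HxD) and, in HxD, without HxD 3 (0.0539). Smc1b lost its call in KO with DESeq2 (0.0752), the stricter filter (0.0964), WT 3 and V 3 aside (0.0564) and without WT 1 (0.0728), WT 3 (0.0772) or KO 3 (0.0596). The labels do not say whether replicate numbers pair these samples, and the correlations cannot settle it. Deviations of same-numbered libraries from different genotypes correlated at -0.14 to 0.12, and those of other-numbered ones at -0.12 to 0.21. Of 12 libraries, 4 were closest to one of their own number. With a replicate block, pathway calls were 5 in KO, 4 in HxD and 2 in V, beside 104, 45 and 8 over all genes, and Trip13 in HxD was -0.0051.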
